A study of Mus musculus with 2 samples.

Results

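Layer 4 intratelencephalic neurons (ITL4GL) of the mouse primary motor cortex were described from the nuclei that carry this annotated name in 2 single-nucleus ATAC-seq libraries. In replicate 1, 582 of 7440 nuclei had this name, and in replicate 2 it was given to 622 of 8874, so the group held 1204 of 16314 nuclei. Both libraries are replicates of 1 condition, the MOp-2 dissection (3C), made on the droplet-based 10x platform, and no treatment or mutant is labelled. Per the methods of the study, the tissue came from male C57BL/6J mice of 56 to 63 days and was pooled from several animals for each replicate, although this is not said separately for the 10x libraries. The study's list of dissections names the primary somatosensory (SSp) and gustatory (GU) areas as possible overlaps of MOp-2. The primary somatosensory area has a prominent layer 4, and how many of the ITL4GL nuclei came from such tissue was not tested. The study describes its replicates of a region as independent, and whether this covers the 10x libraries is not stated.

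Intratelencephalic neurons are glutamatergic neurons whose axons stay within the telencephalon, and they occupy layers 2/3 to 6 of the cortex. In sensory areas the layer 4 cells are the main recipients of thalamic input and pass it on to layer 2/3. The primary motor cortex has no prominent granular layer, although neurons with layer 4 properties have been described there. ATAC-seq counts the DNA fragments that a transposase cuts from open chromatin, so each nucleus is described by how many fragments it gave and by which regions these came from.

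The marker list of the study holds 3 genes for ITL4GL, all protein-coding, and their positions are given in GRCm38 from GENCODE M21. Rorb, a nuclear receptor transcription factor long used as a layer 4 marker, spans 18930605 to 19111196 on the minus strand of chromosome 19. Rspo1, which encodes a secreted activator of Wnt signalling, spans 124986430 to 125009099 on the plus strand of chromosome 4. Ovol2, a zinc finger transcription factor, spans 144305175 to 144332146 on the minus strand of chromosome 2. Rorb and Ovol2 are also listed for the layer 5 intratelencephalic neurons (ITL5GL), so of the 3 only Rspo1 is on one list and not the other, and none is listed for layer 2/3 (ITL23GL). The deposited tables hold no value per gene. The name could therefore not be checked against its markers here, and it was used as deposited.

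Each table gives, for every nucleus, the total fragments (TN), the uniquely mapped (UM), the properly paired (PP) and the unique fragments left without duplicates (UQ), and a position in a 2-dimensional UMAP embedding. The libraries held 48179226 and 55337466 unique fragments, of which ITL4GL contributed 4501651 (9.34%) and 4682486 (8.46%). They shared 105 cell barcodes, of which 11 had the same name in both and 1 was ITL4GL in both, and leaving these nuclei out changed the share of ITL4GL by less than its spread between libraries. Nuclei are not replicates. Values are given per library, and an exact two-sided sign-flip test over 2 libraries cannot go below p = 0.5, so no difference below was put to a test.

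ITL4GL formed a mid-sized group of the motor cortex nuclei. It made up 7.82% of the nuclei in replicate 1 (exact 95% interval 7.22 to 8.46, which covers counting error only, as do all intervals below) and 7.01% in replicate 2 (6.49 to 7.56), a mean of 7.42% ± 0.575 (SD, n = 2 libraries). Among glutamatergic nuclei it made up 15.0% (13.9 to 16.2) and 13.2% (12.3 to 14.2). Of the nuclei with 1 of the 4 intratelencephalic names, 19.6% (18.2 to 21.1) and 18.7% (17.4 to 20.1) were ITL4GL, and these intervals overlapped.

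Layer 2/3 was the larger neighbour in both libraries. ITL23GL counted 1169 and 1191 nuclei, and ITL4GL came to 33.2% of the pair in replicate 1 (31.0 to 35.5) and 34.3% in replicate 2 (32.1 to 36.5). This proportion was close between the libraries, with a log2 ratio of replicate 2 over replicate 1 of 0.05 (counting interval -0.09 to 0.18). Against layer 5 the groups were nearer in size. ITL5GL counted 641 and 781 nuclei, and ITL4GL made up 47.6% of that pair (44.8 to 50.4) and 44.3% (41.7 to 47.0). The interval of replicate 1 included equal numbers and that of replicate 2 did not. The layer 6 intratelencephalic neurons (ITL6GL) counted 573 nuclei in replicate 1, within counting error of ITL4GL, and 732 in replicate 2, where ITL4GL was the smallest of the 4 names.

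**Figure D1:**
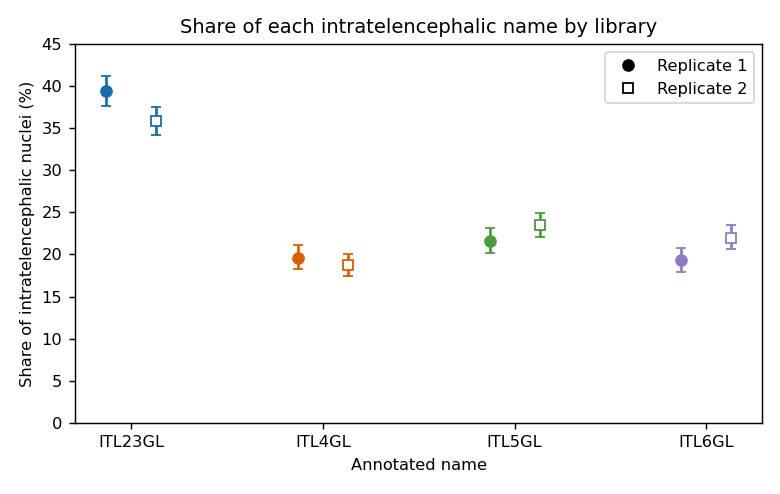
Share of intratelencephalic nuclei (%) with each of the 4 intratelencephalic names, with points for the shares, bars for their exact 95% intervals from the counts, filled circles for replicate 1 and open squares for replicate 2. ITL4GL lies at 19.6% and 18.7% with overlapping intervals, while the points of ITL23GL (39.4% and 35.8%) lie further apart.

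The share of ITL4GL in all nuclei was lower in replicate 2, with a log2 ratio of -0.16 whose counting interval (-0.32 to -0.00149) ended just short of 0. Among glutamatergic nuclei the ratio was -0.18 (-0.33 to -0.03). Within the intratelencephalic nuclei it was -0.07, and the interval included 0 (-0.22 to 0.08). In the same denominator ITL23GL had a ratio of -0.14 (-0.23 to -0.05), ITL5GL 0.12 (-0.01 to 0.25) and ITL6GL 0.19 (0.05 to 0.33). Of the intratelencephalic names, ITL23GL and ITL4GL thus had negative ratios and ITL5GL and ITL6GL positive ones. The intervals of ITL4GL and ITL5GL included 0, and shares of the same denominator cannot all move in 1 direction. Among glutamatergic nuclei, the near-projecting neurons (NPGL) had -0.70 (-1.17 to -0.23). The corticothalamic (CTGL) and pyramidal tract neurons (PTGL) had 0.33 (0.20 to 0.46) and 0.55 (0.30 to 0.80), so the deep-layer names did not share a sign. With 1 dissection per replicate a difference between animals, dissections and libraries cannot be told apart.

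ITL4GL nuclei gave fewer fragments than the other intratelencephalic nuclei. In replicate 1 the median was 7393 unique fragments per nucleus (quartiles 5878 and 9184), with nuclei from 1000 to 23820. Replicate 2 had a median of 7249 (5152 and 9163) and nuclei from 1007 to 20194. The mean of the medians was 7321 ± 102 (SD, n = 2).

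The layer 2/3 median was 8576 in replicate 1 and 7874 in replicate 2, so the ITL4GL median was 0.862 and 0.921 of it (mean 0.891 ± 0.0414, SD, n = 2). The layer 5 median was 9370 and 8370, which puts ITL4GL at 0.789 and 0.866 (0.828 ± 0.0545). For ITL6GL the ratios were 0.836 and 0.921. All 6 of these ratios lay below 1.

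Corticothalamic neurons (CTGL), the layer 6 cells that project to the thalamus, had medians of 7601 and 7107, and the ITL4GL ratios to them were 0.973 and 1.02. Of the 7 glutamatergic names, ITL4GL ranked 6 from the top in replicate 1 and 5 in replicate 2. The pyramidal tract neurons (PTGL) were the highest and the near-projecting neurons (NPGL) the lowest in both libraries.

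The distributions overlapped widely. A randomly paired ITL4GL nucleus had fewer unique fragments than an ITL5GL nucleus of the same library in 68.3% of all pairs in replicate 1 and in 60.2% in replicate 2. Against ITL23GL this held for 60.0% and 55.1% of pairs. The gap to ITL23GL was in the middle of the distribution and not in its upper end. At the 95th percentile ITL4GL reached 0.996 and 1.01 of the ITL23GL value, while against ITL5GL it reached 0.883 and 0.891. Nuclei with over 15000 unique fragments made up 2.41% (14 of 582) and 3.86% (24 of 622) of ITL4GL, beside 2.14% and 3.86% of ITL23GL and 5.93% and 7.17% of ITL5GL.

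**Figure D2:**
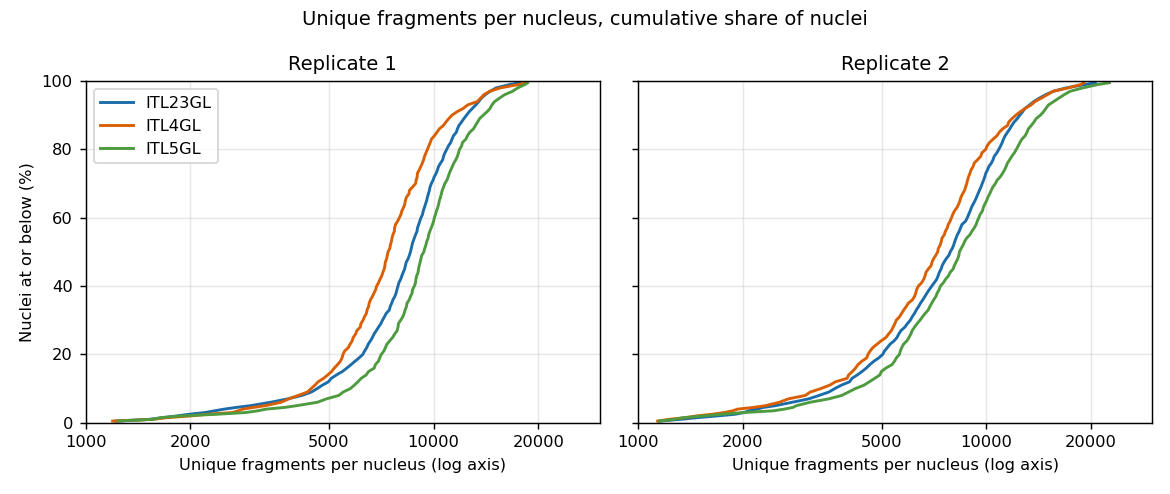
Cumulative share of nuclei (%) by unique fragments per nucleus (log axis) for ITL23GL, ITL4GL and ITL5GL, with replicate 1 on the left and replicate 2 on the right. The ITL4GL curve lies left of the ITL5GL curve from the 5th percentile to the 95th in both libraries, and the curves cross below that. It meets the ITL23GL curve near the top and, in replicate 1, near the bottom.

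Low counts were more frequent in replicate 2. Nuclei under 5000 unique fragments made up 14.3% of ITL4GL in replicate 1 (11.5 to 17.4) and 24.1% in replicate 2 (20.8 to 27.7). For ITL23GL the values were 12.2% and 19.7%, and for ITL5GL 7.33% and 15.2%. Between the libraries the ITL4GL median changed little, with replicate 2 at 0.981 of replicate 1, but the 5th percentile was at 0.707 and the 95th at 1.05. The SD of log10 unique fragments over ITL4GL nuclei was 0.190 and 0.234. ITL5GL had 0.192 and 0.233, so the wider spread of replicate 2 was not specific to layer 4.

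The steps from total to unique fragments removed similar portions in ITL4GL and its neighbours. Medians of total fragments were 9008.5 and 8835.5, of uniquely mapped fragments 8635.5 and 8512.5, and of properly paired fragments 8595 and 8467. Per nucleus, the median uniquely mapped share was 96.1% and 96.2%, and the median share of these that was properly paired 99.5% in each library. Duplicates took a median of 13.6% of the properly paired fragments in replicate 1 and 14.5% in replicate 2, beside 13.6% and 14.5% in ITL23GL and 13.5% and 14.5% in ITL5GL. The libraries differed more in duplicates than the names did. Duplicate share and unique fragments went together over ITL4GL nuclei whose neighbours mostly carry their own name. Spearman's rho was 0.325 over 564 nuclei of replicate 1 and 0.304 over 595 of replicate 2, a description across nuclei that share a library. In ITL23GL rho was 0.419 and 0.309, and in ITL5GL 0.323 and 0.296, so this was not particular to layer 4. Under 10% of duplicates was found in 4 nuclei of replicate 1 and 3 of replicate 2, with median unique fragments of 2277 and 1466. The mitochondrial count is listed as 0 for every nucleus.

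A tail of ITL4GL nuclei with poor mapping was seen in replicate 2. Nuclei with a uniquely mapped share under 95%, a limit chosen after the values were seen, numbered 9 of 582 in replicate 1 (1.55%, 0.709 to 2.92) and 32 of 622 in replicate 2 (5.14%, 3.55 to 7.19). The lowest values were 91.9% and 85.9%. All 7 glutamatergic names had more such nuclei in replicate 2. ITL23GL went from 1.11% to 2.77% and ITL5GL from 0.780% to 3.33%, while CTGL reached 4.66% and the small NPGL group 8.06% (5 of 62). The intervals of ITL4GL, ITL5GL and CTGL in replicate 2 overlapped, as did those of ITL4GL and ITL23GL (1.91 to 3.87).

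Under 93%, also a limit chosen after the values were seen, the counts were 2 ITL4GL nuclei in replicate 1 and 15 in replicate 2 (2.41%, 1.36 to 3.95). In replicate 2 they were 6 of 1191 ITL23GL nuclei (0.504%, 0.185 to 1.09), an interval below that of ITL4GL. For ITL5GL, with 6 of 781 (0.768%, 0.282 to 1.66), and CTGL, with 13 of 987 (1.32%, 0.703 to 2.24), the intervals overlapped with that of ITL4GL. The same held for ITL6GL, with 9 of 732 (1.23%, 0.564 to 2.32), and for PTGL (0.0744 to 2.20) and NPGL (0.0408 to 8.66). These nuclei were not shallow. The 32 ITL4GL nuclei under 95% had a median of 7439.5 unique fragments against 7238 in the other ITL4GL nuclei, and all of their 30 nearest nuclei in the embedding were ITL4GL.

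**Figure D3:**
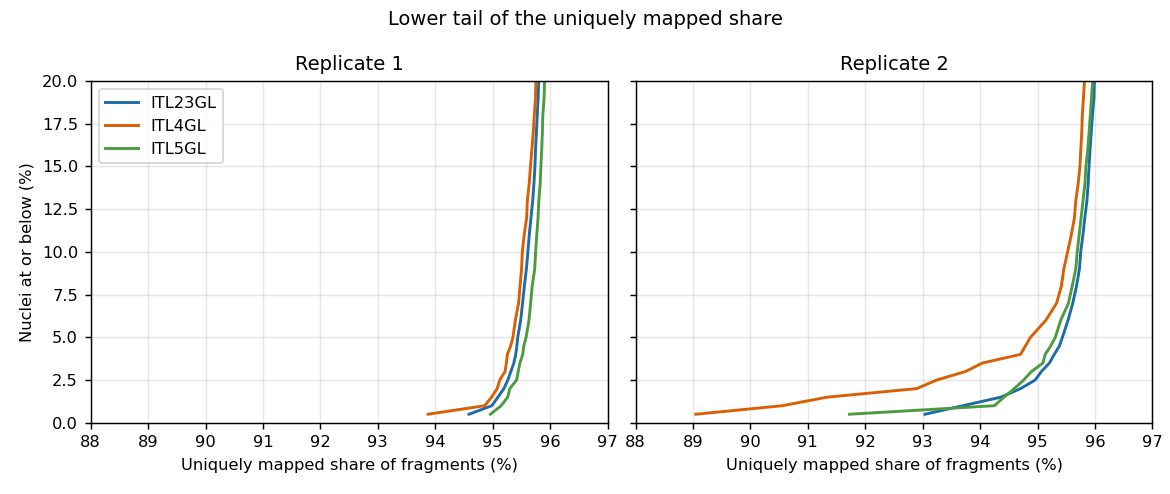
Lower 20% of the cumulative share of nuclei (%) by uniquely mapped share of fragments (%) for ITL23GL, ITL4GL and ITL5GL, replicate 1 left and replicate 2 right. The curves start at the lowest 0.5% of nuclei. The ITL4GL curve of replicate 2 runs furthest to the left, with 2.41% of its nuclei under 93%.

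In the embedding, ITL4GL lay between layer 2/3 and layer 5 and next to layer 5. Distances in a UMAP have no unit and do not scale with differences in accessibility, and the names and the embedding come from the same nuclei, so the place is a description. The sources do not say which nuclei entered the embedding. The median position of ITL4GL was 6.60 on the first axis and 1.80 on the second in replicate 1, and 6.61 and 1.72 in replicate 2. On the line from the ITL23GL median at 0 to the ITL5GL median at 1, ITL4GL projected to 0.605 and 0.589 (mean 0.597 ± 0.0112, SD, n = 2), at 1.34 and 1.41 units off that line. The medians of the libraries were 0.0780 units apart for ITL4GL, 0.108 for ITL23GL and 0.131 for ITL5GL.

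The borders differed more than the medians. For nuclei whose neighbours mostly carry their own name, the closest ITL4GL and ITL5GL nuclei were 0.136 units apart, counted from ITL4GL nuclei of replicate 1, and 0.247 units from those of replicate 2. The closest ITL23GL nucleus was 2.50 and 2.60 units away. Of these ITL4GL nuclei, 90.4% and 90.3% had an ITL5GL nucleus as the nearest nucleus of another name, and 9.22% and 8.74% an ITL23GL nucleus. Seen from the other side, all 1167 and 1191 such ITL23GL nuclei had ITL4GL as their nearest other name, while ITL5GL nuclei had ITL6GL in 71.0% and 76.0% and ITL4GL in 29.0% and 24.0%. By nearest other name, ITL23GL thus led to ITL4GL, ITL4GL mostly to ITL5GL and ITL5GL mostly to ITL6GL, with an open gap between ITL23GL and ITL4GL. The places did not form a single line. On the second axis the ITL6GL median (4.23 in both libraries) lay between those of ITL4GL and ITL5GL (5.94 and 6.06). From these ITL4GL nuclei, the closest ITL6GL nucleus was a median of 3.29 and 3.36 units away, against 1.92 and 1.99 for ITL5GL.

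**Figure D4:**
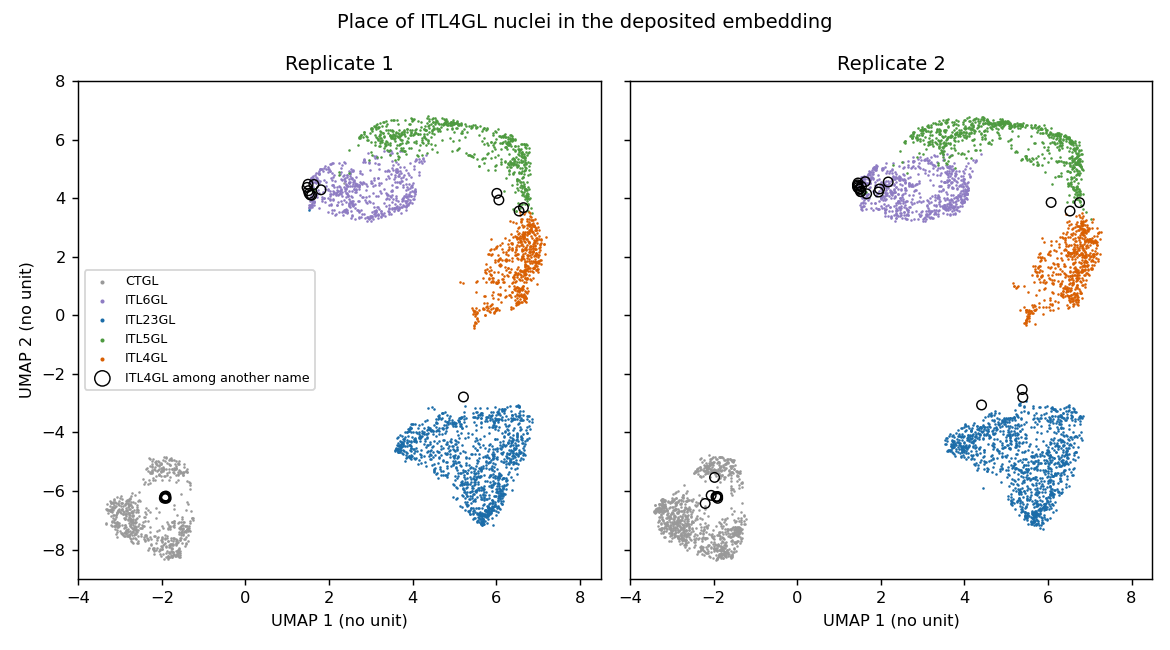
Nuclei of ITL23GL, ITL4GL, ITL5GL, ITL6GL and CTGL on the UMAP axes (no unit), replicate 1 left and replicate 2 right; the axes leave out the other names and nuclei outside the frame. Black circles mark the 18 and 27 ITL4GL nuclei that lie among another name, of which 22 in all sit by ITL6GL and 12 by CTGL.

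Nearly all neighbours of an ITL4GL nucleus were ITL4GL. Of the 30 nearest nuclei, 97.3% in replicate 1 and 96.5% in replicate 2 had the same name (mean 96.9% ± 0.582, SD, n = 2). Of the other names, ITL5GL took 1.01% and 0.734% and ITL6GL 0.928% and 1.48%, so their order turned between the libraries. CTGL took 0.550% and 0.788% and ITL23GL 0.160% and 0.461%. Every neighbour was ITL4GL for 551 of 582 nuclei (94.7%) and 584 of 622 (93.9%). Libraries were mixed within the group. Among ITL4GL nuclei alone, 50.5% of the neighbours of replicate 1 nuclei came from replicate 2 where random mixing gives 51.7%, and 48.9% of those of replicate 2 nuclei came from replicate 1 where it gives 48.4%.

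A small set of ITL4GL nuclei lay among nuclei of another name, with at most 50% of their 30 neighbours named ITL4GL. They numbered 18 in replicate 1 (3.09%, 1.84 to 4.84) and 27 in replicate 2 (4.34%, 2.88 to 6.25). ITL5GL had similar shares of such nuclei, 3.74% and 2.82%, and ITL6GL 1.75% and 1.91%. ITL23GL had 2 of 1169 nuclei (0.171%) and 0 of 1191, which allows a share of up to 0.252% by a limit of 3 counts and 0.309% by the exact interval. For ITL4GL the most common other name was ITL6GL for 22 of the 45 nuclei, CTGL for 12, ITL5GL for 7 and ITL23GL for 4. The count depends on the number of neighbours, because a set as small as the 12 by CTGL cannot itself fill 50% of 30 neighbours. With 10 neighbours, 2.23% and 2.57% of ITL4GL nuclei lay among another name.

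The 34 nuclei by ITL6GL and CTGL had similar median places in both libraries. By ITL6GL, the 8 nuclei of replicate 1 had a median position of 1.54 on the first axis and 4.27 on the second, and the 14 of replicate 2 one of 1.52 and 4.34, on the side of ITL6GL away from ITL4GL. By CTGL, the 5 and 7 nuclei were at -1.92 and -6.23, and at -1.95 and -6.20, and a median of 33.3% of their neighbours were other ITL4GL nuclei. The farthest of them lay 0.0531 units from the median in replicate 1 and 0.662 in replicate 2.

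As a set, the 45 nuclei carried more fragments than the rest of ITL4GL. The median was 10288.5 unique fragments in replicate 1 against 7360 in the other ITL4GL nuclei, and 10043 against 7101 in replicate 2, ratios of 1.40 and 1.41. Of the 18, 15 lay above the median of the others, and of the 27, 21 did. For comparison, medians of CTGL and ITL6GL are given here over their nuclei that lay among their own name. The 5 nuclei by CTGL in replicate 1 ranged from 7526 to 13653 with a median of 10728, where such CTGL nuclei had 7595. The 7 in replicate 2 ranged from 3891 to 18238 with a median of 14863, where such CTGL nuclei had 7121.5. By ITL6GL the medians were 10496 and 11750, where such ITL6GL nuclei had 8795 and 7909. The few nuclei by the other names did not all lie higher. The 4 by ITL5GL in replicate 1 had a median of 6683, 0.908 of the rest of ITL4GL, and the 3 in replicate 2 one of 8271. By ITL23GL, 1 nucleus in replicate 1 had 7492 and the 3 in replicate 2 had a median of 10624. The uniquely mapped share (medians 96.1% and 96.2%) was close to that of all ITL4GL nuclei. Whether these barcodes hold more than a single nucleus was not tested. Without such nuclei of ITL4GL, ITL23GL and ITL5GL, an alternative chosen after the values were seen, ITL4GL made up 7.63% and 6.74% of the nuclei, and its median was 0.858 and 0.902 of that of ITL23GL and 0.784 and 0.839 of that of ITL5GL.

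Depth also varied with place inside the group. Over ITL4GL nuclei that lay among their own name, unique fragments and the first axis had Spearman's rho of -0.233 in replicate 1 (564 nuclei) and -0.317 in replicate 2 (595 nuclei). In ITL23GL rho was -0.0468 and -0.0233, and in ITL5GL -0.138 and -0.113. These are descriptions across nuclei that share a library. The ITL4GL nuclei were sorted along the axis and cut into 5 parts of equal size, a choice made after the values were seen. On this axis the medians of ITL23GL, ITL5GL, ITL6GL, CTGL and NPGL lie on the low side. That of PTGL, the glutamatergic name with the highest median of unique fragments, lies on the high side (11.97 and 12.03). The ITL4GL nuclei of the lowest part had medians of 9042 and 8853 unique fragments. Those of the highest part had 6837 and 5723, and the quartile ranges of the lowest and highest parts overlapped. The 3 middle parts lay between 7133.5 and 7454 in replicate 1 and between 6616 and 7573 in replicate 2.

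Nuclei with over 15000 unique fragments gathered there too, with 9 of 113 in the lowest part and 1 of 113 in the highest in replicate 1, and 14 of 119 and 0 of 119 in replicate 2. The ITL4GL nuclei with a uniquely mapped share under 95% numbered 0, 4, 2, 0 and 2 from the lowest to the highest part in replicate 1. In replicate 2 they numbered 8, 9, 11, 3 and 1, so most lay in the lower 3 parts. Over all ITL4GL nuclei among their own name, the uniquely mapped share and the first axis had Spearman's rho of 0.198 and 0.260. In ITL23GL this rho was 0.160 and 0.138, and in ITL5GL 0.00864 and -0.0366. At the border with layer 5, 23 and 22 ITL4GL nuclei had an ITL5GL nucleus among their neighbours, and 13 and 11 of these lay among their own name. The 13 and 11 gave medians of 6629 and 5662 fragments, 0.900 and 0.790 of the other ITL4GL nuclei among their own name. These medians of few nuclei lay below the ITL5GL medians of 9370 and 8370, and the cause was not tested.

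**Figure D5:**
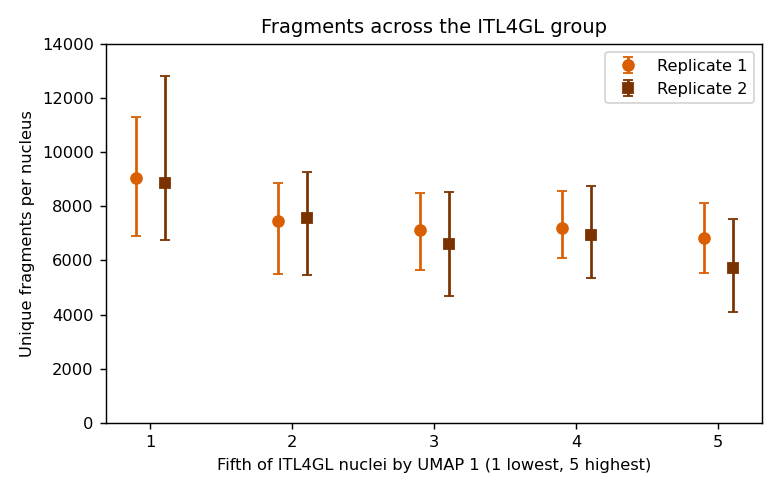
Unique fragments per nucleus in 5 equal parts of the ITL4GL nuclei sorted by the first UMAP axis, as medians with quartiles over 112 to 119 nuclei per part, circles for replicate 1 and squares for replicate 2. The lowest part has the highest median in both libraries (9042 and 8853), and the highest part the lowest (6837 and 5723).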

How the data were processed

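Single-nucleus ATAC-seq was made from the MOp-2 dissection in 2 libraries. The authors deposited whole-number counts of fragments per nucleus, log10 values (log10 of the unique fragment count plus 1) and UMAP coordinates, a score without unit deposited by the authors. Alignment used bwa and mm10, per the study methods. Fragments were kept at a mapping quality over 30, if properly paired and under 1000 bp, and duplicates were removed with SnapTools. The study methods kept nuclei with at least 1000 fragments and a TSS enrichment over 10. They also removed potential doublets, or barcode collisions, with a modified Scrublet. These filters are not described separately for the 10x libraries, and no further doublet removal was made. The lowest count in the tables is 1000. The submitters' processing notes also name Cell Ranger ATAC; for its role and for any version, nothing was given in those sources. No count was normalized.

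Nuclei were grouped by the deposited names. Shares per library have exact Clopper-Pearson 95% intervals, log2 ratios of shares counting intervals by the log method, and mean and SD are over 2 libraries. Intervals cover counting error only. Neighbours are the 30 nearest nuclei of both libraries in the embedding. The only genes named are the markers listed for ITL4GL. The names described are ITL4GL, ITL23GL, ITL5GL and the other glutamatergic names, and any further name only at 1% or more of the ITL4GL neighbours, which none reached. Members, lists and tests were chosen with earlier results of these data known. Statistics were tested on simulated data. Tools were scikit-learn 1.9.0, scipy 1.17.1, pandas 2.3.3, numpy 2.4.6 and matplotlib 3.10.9 under Python 3.11.15.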

Additional observations from a re-analysis of the deposited data

How the results depend on the processing

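With 18 results under 145 alternatives, 126 stayed within the spread between libraries (for the log2 ratio of shares, within its counting interval) and 19 moved beyond it. A change of direction was defined only for that log2 ratio, which stayed negative in each of its alternatives. Leaving out either library cannot move a mean of 2 by more than their SD, and a share pooled over libraries lies between their 2 shares. Both kinds of alternative are therefore part of the 126 by construction. With at least 2000 fragments, ITL4GL made up 8.04% of the nuclei at a median of 7431.75 fragments. With at least 5000 it made up 10.7% of all nuclei, 18.3% of intratelencephalic nuclei, 32.9% of the pair with ITL23GL and 43.6% of the pair with ITL5GL, at a median of 7915.25; a minimum removes shallow nuclei by construction. With the deepest 5% of nuclei left out, the median was 7112 and 2.83% of ITL4GL nuclei lay among another name. Means over nuclei gave 7631.45 fragments, a uniquely mapped share of 96.05% (96.0% from sums) and a place of 0.609 between ITL23GL and ITL5GL. With 10 neighbours, 97.6% had the same name and 2.40% of ITL4GL nuclei lay among another name. Without the nuclei among another name, an alternative chosen after seeing the data, ITL4GL made up 32.9% of the pair with ITL23GL, and its neighbours were 99.9% ITL4GL, 0.111% ITL5GL and 0% ITL23GL, by construction. The log2 ratio of shares between the libraries was -0.14 (-0.30 to 0.015) with at least 2000 fragments and -0.16 (-0.32 to 0.0052) without the deepest nuclei, where the interval included 0; it was -0.22 with at least 5000 and its interval did not. The cause was not tested. Limits on the uniquely mapped share and nuclei lying among another name were examined after the values were seen. No paired analysis was possible because the labels give no other group of libraries to pair with; the ratios between names were taken within each library. TSS enrichment and doublet scores were not analysed here.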
